A study of Mus musculus with 24 samples.

Results

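MicroRNA genes and genes of small nucleolar RNAs (snoRNAs) and small Cajal body RNAs (scaRNAs) were followed through the return of a polyamine to mouse fibroblasts that had been depleted of it. The members were all genes whose symbol begins with Mir and a digit, Mirlet7, Snora, Snord or Scarna and whose probe set carries that symbol alone, with the highest-mean probe set where a gene had several. This gave 354 of the 19938 genes tested: 296 miRNA genes, 31 genes of C/D box snoRNAs (Snord), 20 of H/ACA box snoRNAs (Snora), 3 of scaRNAs and 4 long transcripts named as hosts of miRNAs (Mir17hg, Mir100hg, Mir99ahg and Mir670hg). The cells were NIH3T3, an established mouse fibroblast line. At 30, 60, 120, 240, 360, 480 or 600 min before collection they were given 10 µM spermidine, after 96 h in 1 mM DFMO, an inhibitor of ornithine decarboxylase that drains the cell of its own polyamines. The 0 min cells had DFMO for the same 96 h and no spermidine. Spermidine was always given with 1 mM aminoguanidine, which stops serum enzymes from oxidising it, and whether the 0 min cells had aminoguanidine too is not stated. Each of the 8 times had 3 arrays described as biological replicates, and no array of cells kept in DFMO alone to a later time was analysed here, so time in culture and spermidine cannot be told apart.

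A miRNA gene is transcribed as a long primary transcript, which Drosha and Dgcr8 cut to a hairpin in the nucleus and Dicer1 cuts to the mature strand after export. Bases 2 to 8 of that strand, the seed, pair with target messenger RNAs, so miRNAs that share a seed share many targets. Most snoRNAs lie in introns of host genes, many of which encode ribosomal proteins or nucleolar proteins, and are trimmed from the spliced intron. C/D box snoRNAs guide ribose methylation and H/ACA box snoRNAs guide the change of uridine to pseudouridine in ribosomal RNA, a few of both kinds are needed to cut the ribosomal precursor, and scaRNAs guide the same changes in spliceosomal RNAs. The arrays were labelled from 200 ng of total RNA with a whole-transcript kit. Mature RNA, precursor and host transcript can therefore all add to the signal of such a probe set, and here they cannot be told apart.

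Genes that the miRNA results describe encode the following 19 mature strands, whose own levels were not measured apart from their precursors and hosts. The sequences are taken from RefSeq with GRCm38.p6 coordinates and written 5′ to 3′ with the seed in capitals. Of the 296 miRNA genes, 270 had a mature sequence in that table. The first group has the seed of the miR-15 and miR-16 family. Those of Mir15b (chr3:69009775-69009796, plus strand) and Mir16-2 (chr3:69009918-69009939, plus strand) share an intron of Smc4, that of Mir15a lies at chr14:61632075-61632096 (minus strand), and that of Mir195a at chr11:70235062-70235082 (plus strand).
miR-15b-5p: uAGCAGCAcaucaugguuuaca
miR-16-5p: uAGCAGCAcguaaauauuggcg
miR-15a-5p: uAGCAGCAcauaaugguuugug
miR-195a-5p: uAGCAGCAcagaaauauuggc

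The next group holds strands of the Mir17-92 cluster on the plus strand of chromosome 14, at chr14:115043684-115043706 (Mir17), chr14:115043867-115043889 (Mir18), chr14:115044048-115044070 (Mir19a), chr14:115044183-115044205 (Mir20a) and chr14:115044358-115044380 (Mir19b-1). With them stand 2 strands from an intron of Mcm7 on the minus strand of chromosome 5, at chr5:138165574-138165596 (Mir93) and chr5:138165787-138165807 (Mir106b), which have the seed of miR-17 and miR-20a. The seed of miR-18a differs from it by 1 base, and the miR-19 strands have a seed of their own.
miR-17-5p: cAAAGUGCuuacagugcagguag
miR-20a-5p: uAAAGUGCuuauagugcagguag
miR-93-5p: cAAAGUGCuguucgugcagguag
miR-106b-5p: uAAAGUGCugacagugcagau
miR-18a-5p: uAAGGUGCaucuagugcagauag
miR-19a-3p: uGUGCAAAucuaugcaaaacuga
miR-19b-3p: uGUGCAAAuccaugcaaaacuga

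The last group holds the strands of the other genes described at length. Mir221 (chrX:19146307-19146329) and Mir222 (chrX:19146901-19146923) lie side by side on the minus strand and share a seed. The others lie on plus strands, at chr9:41581940-41581961 (Mir125b-1), chr11:96265187-96265208 (Mir196a-1), chr8:84208563-84208583 (Mir23a), chr8:84208727-84208747 (Mir27a), chr1:137966650-137966673 (Mir181b-1) and chr4:150068473-150068494 (Mir34a). The seeds of miR-23a and miR-27a, which come from 1 transcript, share their first 5 bases.
miR-221-3p: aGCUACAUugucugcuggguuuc
miR-222-3p: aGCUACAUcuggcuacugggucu
miR-125b-5p: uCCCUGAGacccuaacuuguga
miR-196a-5p: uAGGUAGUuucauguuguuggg
miR-23a-3p: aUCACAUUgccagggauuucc
miR-27a-3p: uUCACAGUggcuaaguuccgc
miR-181b-5p: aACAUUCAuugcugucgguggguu
miR-34a-5p: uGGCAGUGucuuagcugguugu

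The values are log2 probe set signals, and each difference is a log2 difference with the standard error (SE) of the model. Since the arrays carry no detection call, a background level was set at the 95th percentile of the means of 1231 odorant, vomeronasal and taste receptor genes, which gave 4.47. The median gene of the whole table lay at 4.35 and the median array between 4.40 and 4.45. All 8 fibroblast markers lay above this level, with means from 6.04 to 12.7. Of the other marker lists, 2 of 6 macrophage markers (Cd68 and Lyz2), 1 of 6 of epithelium (Cdh1 at 4.60), 1 of 4 of muscle (Acta1), 1 of 4 of neurons (Tubb3) and 0 of 4 of adipocytes did. Before the results, 2 arrays have to be named: on the first principal component, with 63.1% of the variance, replicate 3 of 120 min lay at 2.61, against -12.2 for both others of its time, and replicate 3 of 240 min at -13.2, against 2.07 and 1.49. Of 69 called differences between late and early arrays (defined below) that were recomputed without both arrays, 61 kept their call, 0 changed sign and the largest move was 0.09. Besides members, the 69 include hosts and protein genes that make or use these RNAs. These are not members, and none of them lost its call, so the share kept by members is lower. The 8 that lost their call, all members, were Snord55, Snora41, Snora3 and Snora23, given below, and Mir129-2, Mir206, Mir369 and Mir7b, with differences of 0.05 to 0.06 without the 2 arrays. The values also carry an adjustment for replicate number made before deposit, so the counts of members by class are given with replicate number as a block in the model as well.

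Signal differed by the class of RNA. Of the 54 snoRNA and scaRNA genes, 49 lay above the background level, among them 28 of 31 C/D box genes (90.3%) and 19 of 20 H/ACA box genes, with median signals of 6.71 and 6.68. Of the 296 miRNA genes 69 did (23.3%), and their median of 4.04 was close to the 4.06 of the receptor genes. In all, 119 of 354 members lay above the level, and 235 at or below it. Levels of different probe sets cannot be set against each other as amounts of RNA. The brightest snoRNA probe sets were those of Snord57, in an intron of Nop56, at 10.53, Snord16a (Rpl4) at 9.95, Snord49b at 9.30, Snord22 at 8.48 and Snora2b at 8.46, and that of the scaRNA Scarna17 was at 9.67. The 5 C/D box, H/ACA box and scaRNA genes below the level were Snord118 (3.76), Scarna8 (3.91), Snora62 (4.15), Snord61 (4.20) and Snord85 (4.44). Among miRNA genes the means were highest for Mir692-1 (9.65), Mir196a-1 (7.03), Mir568 (6.93), Mir27a (6.41) and Mir6516 (6.34). Mir692-1 has near-identical copies in the mouse genome, and which copy its signal comes from is uncertain.

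**Figure D1:**
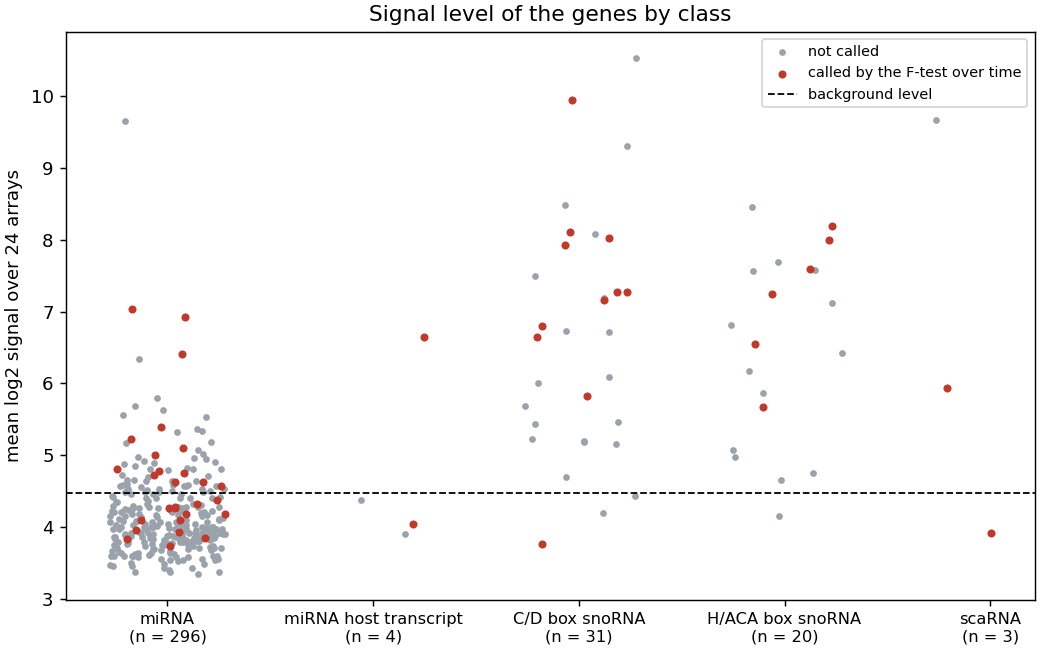
Mean log2 signal over 24 arrays of every member by class, each point a gene, with the background level of 4.47 dashed and genes called by the F-test over the 7 times in red. Of the C/D box genes 28 of 31 lie above the line, and of the miRNA genes 69 of 296.

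Most called changes of members came late in the course, and few were large. By limma with Benjamini-Hochberg adjustment over all 19938 genes, 0 of 354 members differed from 0 min at 30 min (0.015% of all genes, either direction), where 31 members had an unadjusted p under 0.05. At 60 min 1 member passed (0.0251% of all genes), Mir181b-1, and at 120 min 2 members passed (0.471%), Mir15b upward and Mir221 downward. At 240 min 5 members were higher and 3 lower (0.366% and 2.69% of all genes). At 360 min 9 were higher and 5 lower (8.47% and 10.5%), at 480 min 13 were higher and 11 lower (9.73% and 14.5%), and at 600 min 15 were higher and 17 lower (11.2% and 15.7%). The median difference of the members was between -0.01 and 0.01 at each time, and that of all genes likewise.

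With replicate number as a block, 0, 0, 0, 5, 8, 17 and 25 members passed at the 7 times in order. Without the 2 arrays that stand apart, 0 passed at 120 min, and 6 were higher and 2 lower at 240 min. With each array centred on its median, the split was 9 higher and 12 lower at 480 min and 11 higher and 22 lower at 600 min. Single arrays carried part of these counts. At 600 min 19 members passed without 0 min replicate 2, 21 without 600 min replicate 2 and 18 without 600 min replicate 3. At 480 min 12 passed without 0 min replicate 2, 14 without 0 min replicate 3, 13 without 480 min replicate 2 and 14 without 480 min replicate 3. At 360 min 9 passed without 0 min replicate 2, 8 without 0 min replicate 3, 9 without 360 min replicate 2 and 6 without 360 min replicate 3. At 240 min 2, 5 and 5 passed without 0 min replicate 1, 2 or 3, 4 without 240 min replicate 1 and 1 without 240 min replicate 2. The results below therefore rest first on calls that no single array decides.

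The F-test over the 7 differences called 49 members, or 39 with the block, 47 without the 2 arrays that stand apart and 34 with both changes. That is 13.8% of the members, against 30.9% of all genes. Of the 119 members above background it called 32 (26.9%), against 59.3% of all genes above background, and of the 235 others it called 17 (7.23%). Only 10 members had a called difference of 0.5 or more in size at any time against 0 min.

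A second comparison set the 9 late arrays (360, 480 and 600 min) against the 9 early ones (30, 60 and 120 min) and used no 0 min array. It called 22 members higher and 38 lower, against 16.4% and 19.4% of all genes (3272 and 3867 genes). The split was 15 higher and 33 lower with the block, 18 and 34 without the 2 arrays that stand apart, and 15 and 33 with both changes. It was 13 higher and 45 lower with the arrays centred on their medians, 15 and 38 after quantile normalization, and 30 and 37 with a trended robust prior, which was nearer to even. The median late minus early difference was 0.01 for members and for all genes.

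Of the 31 C/D box snoRNA genes, 13 were lower and 2 higher in the late arrays than in the early ones, with a median difference of -0.09, and 16 had no call. The share lower, 41.9%, stands beside 19.4% of all genes and 37.8% of the genes above background, where 28 of the 31 lie, so it is near that of genes with a like signal. The share higher, 6.45%, stands beside 16.4% of all genes and 27.7% of those above background. The counts were 12 lower and 2 higher with the block, 12 and 2 without the 2 arrays that stand apart, and 11 to 13 lower when any 1 array was left out. Against 0 min, 7 were lower (22.6%) and 2 higher (6.45%) at 600 min, or 6 and 2 with the block, against 15.7% and 11.2% of all genes and 31.4% and 19.5% of those above background. When single arrays were left out the lowest counts were 4 and 1 without 0 min replicate 2 and 5 and 1 without 600 min replicate 3. Of the 13 falls, 11 held without any single array. The exceptions were Snord55 and Snord73a.

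Snord53, in an intron of Wdr43, which encodes a nucleolar protein of small-subunit processing, fell most among the C/D box genes. Its signals were 6.29, 5.83 and 5.78 at 600 min, against 6.64, 7.09 and 7.09 at 0 min. The 30 min arrays had 7.23, 7.25 and 7.26. At 120 min they were 6.75, 6.87 and 6.18 and at 240 min 5.98, 6.83 and 7.21, with replicate 3 apart from the others at both times. All 600 min arrays lay below all 0 min arrays, by a mean of -0.98 ± 0.26 (SE, adjusted p = 0.00665). Late against early the difference was -0.91 ± 0.15 (adjusted p = 4.43e-05), and -0.98 without the 2 arrays that stand apart (adjusted p = 4.18e-06). Wdr43 itself was lower by less, with a late minus early difference of -0.12 (adjusted p = 0.00371).

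Snord95, in an intron of Rack1, had 6.53, 6.23 and 6.24 at 600 min, against 6.71, 7.06 and 6.93 at 0 min. The groups did not overlap, and the difference was -0.57 ± 0.14 (adjusted p = 0.00297). Late against early it was -0.53 ± 0.08 (adjusted p = 1.29e-05), and neither call was lost without any single array. Snord96a shares this host, which no probe set with 1 symbol measured, and was lower late by -0.22 (adjusted p = 0.0083).

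Snord16a, in an intron of the ribosomal protein gene Rpl4, had the second brightest snoRNA signal, and its fall was smaller. Its signals were 9.80, 9.53 and 9.69 after 480 min and 9.55, 9.52 and 9.69 after 600 min, against 9.95, 10.20 and 10.18 at 0 min. Neither later time overlapped with 0 min. The differences were -0.44 ± 0.09 at 480 min (adjusted p = 9.69e-04) and -0.52 ± 0.09 at 600 min (adjusted p = 1.35e-04), and late against early -0.38 ± 0.05 (adjusted p = 4.1e-06). Rpl4 differed by -0.04 at 600 min (adjusted p = 0.487).

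Snord49a had 6.83, 6.92 and 6.93 at 600 min, against 7.03, 7.45 and 7.14 at 0 min, without overlap, but at 240 min it had 7.43, 7.44 and 7.59. Its difference at 600 min was -0.32 ± 0.08 (adjusted p = 0.00605), which became an adjusted p of 0.0554 without 0 min replicate 2, and its late minus early difference was -0.28 ± 0.05 (adjusted p = 6.23e-05). Snord49b, in the same host transcript, had a late minus early difference of 0.02. Snord42b, chosen after its values were seen, was lower late by -0.19 (adjusted p = 0.00666) and Snord42a, also in Rpl23a, had a difference of -0.09 that missed the threshold.

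The other late falls of C/D box genes were chosen for naming after their values were seen, except Snord35b and Snord82. Snord73b (in Rps3a1) had a late minus early difference of -0.45 (adjusted p = 0.00129), Snord82 (Ncl) of -0.43 (adjusted p = 0.00721), Snord37 (Eef2) of -0.31 (adjusted p = 0.00913), Snord35b of -0.26 (adjusted p = 0.0082) and Snord87 (Snhg6) of -0.26 (adjusted p = 0.0147). The late arrays overlapped with the early ones for each of these. Snord73a, in the same host as Snord73b, had -0.27 (adjusted p = 0.0273) and lost its call without 30 min replicate 2, 60 min replicate 1, 360 min replicate 2 or 480 min replicate 2 (adjusted p up to 0.0671). Snord55 had -0.28 (adjusted p = 0.0432), with an adjusted p of 0.0619 with the block and 0.0833 without the 2 arrays that stand apart. That call was also lost without any of 11 single arrays (adjusted p up to 0.103), among them 30 min replicates 2 and 3, every 60 min array, 120 min replicate 3, 360 min replicates 2 and 3, 480 min replicate 2 and 600 min replicates 2 and 3.

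Among H/ACA box genes 1 fell by as much as 1 log2 unit. Snora75 lies in an intron of Ncl, the gene of nucleolin, a major nucleolar protein. Its signals were 7.25, 7.91 and 7.54 after 0 min, 8.01, 7.84 and 7.53 after 30 min, 7.76, 7.92 and 7.76 after 60 min and 7.46, 7.56 and 7.09 after 120 min. They were 6.95, 7.40 and 8.03 after 240 min, 7.09, 6.61 and 7.01 after 360 min, 6.87, 6.28 and 6.86 after 480 min and 6.61, 6.46 and 6.18 after 600 min. All 9 arrays from 360 min on lay below all 3 arrays at 0 min.

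The difference of Snora75 from 0 min was -0.90 ± 0.23 at 480 min (adjusted p = 0.00576) and -1.15 ± 0.23 at 600 min (adjusted p = 6.24e-04). Both held without any single array. The one at 360 min, -0.66 ± 0.23 (adjusted p = 0.049), was lost without any of 5 of its 6 arrays, with an adjusted p of up to 0.233 (all but 0 min replicate 1). Late against early it was -1.0 ± 0.13 (adjusted p = 3.4e-06), and -1.04 without the 2 arrays that stand apart. Ncl, with a mean signal of 11.38, differed by -0.06 at 600 min (adjusted p = 0.383) and by -0.05 late against early (adjusted p = 0.175), neither of them a call. Snord82, also in Ncl, fell late as given above but differed from 0 min at 600 min by -0.30 without a call (adjusted p = 0.35).

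Over all 20 H/ACA box genes, 4 were lower (20.0%) and 2 higher (10.0%) late against early, beside 19.4% and 16.4% of all genes. Both shares lay below the 37.8% and 27.7% of the genes above background, where most of the 20 lie. With the block, or without the 2 arrays that stand apart, 1 was lower and 2 higher. The 3 that lost their calls were Snora41 (-0.19), Snora3 (-0.18) and Snora23 (-0.17), which also lost them without any of 11 to 13 single arrays of 18 (adjusted p up to 0.113). Late against early, Snora75 was lower under every setting tried.

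A different group of snoRNA genes was highest in the middle of the course. At 240 min 4 of the 54 snoRNA and scaRNA genes were higher than at 0 min and 0 lower, or 3 and 0 with the block, against 0.366% and 2.69% of all genes, and their median difference was 0.13. The count was 1 without 0 min replicate 1, 240 min replicate 1 or 240 min replicate 2, and 2 without 0 min replicate 2. At 120 min the median was 0.12 with 0 called. The 4 at 240 min were Snord14e, Snora74a, Snora73a and Snora73b, all but Snora74a belonging to the snoRNAs needed for cutting the ribosomal precursor. Of the 6 measured genes of a list made for such snoRNAs, those 3 were higher and 0 lower at 240 and at 360 min, or 2 at 240 min and 3 at 360 min with the block. Without 0 min replicate 1 the count was 0 at both times. Of all genes, 8.47% were higher and 10.5% lower at 360 min. Snord14e, Snora73b and Snord118 were higher late against early. Snord22 and Snord8 of the list had no called difference, with F-test adjusted p of 0.615 and 0.928. Snord8 was on the list although it does not encode U8, which is the RNA of Snord118.

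Snord14e encodes a copy of U14, which is needed to make small-subunit ribosomal RNA, and lies in an intron of the chaperone gene Hspa8. Its signals were 7.25, 7.59 and 7.97 after 0 min, 7.39, 7.55 and 7.25 after 30 min and 7.33, 7.58 and 7.24 after 60 min. They were 8.14, 8.69 and 8.89 after 120 min, 8.76, 8.40 and 8.43 after 240 min, 8.36, 8.25 and 8.65 after 360 min, 8.70, 8.09 and 8.32 after 480 min and 8.28, 8.06 and 7.46 after 600 min. Every array from 120 to 480 min lay above all 9 arrays from 0 to 60 min, while the 600 min arrays overlapped with those at 0 min. Mouse U14 genes lie in several introns of the same host and are near copies, so which copy gave the signal is uncertain.

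The difference of Snord14e from 0 min was 0.97 ± 0.22 at 120 min (adjusted p = 0.0518), 0.93 at 240 min (adjusted p = 0.0236), 0.82 at 360 min (adjusted p = 0.0107), 0.77 at 480 min (adjusted p = 0.0126) and 0.33 at 600 min (adjusted p = 0.311). Without the 2 arrays that stand apart the one at 240 min was 0.98 (adjusted p = 0.013). The 240 min call was lost without 0 min replicate 1 (adjusted p = 0.143), 0 min replicate 2, 240 min replicate 1 or 240 min replicate 2. The 360 min call was lost without 0 min replicate 1 (adjusted p = 0.0741) or 360 min replicate 3 (adjusted p = 0.0586), and the 480 min call without 0 min replicate 1 (adjusted p = 0.086) or 480 min replicate 1 (adjusted p = 0.0804). The late minus early difference of 0.46 ± 0.13 (adjusted p = 0.00637) held without any single array. Hspa8 differed by 0.09 at 120 min and 0.12 at 240 min without a call, and by 0.32 ± 0.05 at 360 min (adjusted p = 7.61e-05) and 0.37 at 600 min (adjusted p = 3.79e-06). At 600 min the host had a call and Snord14e had none, but the differences of 0.37 and 0.33 were close in size. Whether gene and host differed from each other was not tested.

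Snora74a, in the non-coding host Snhg4, had 7.15, 6.70 and 6.92 at 240 min, against 6.22, 6.21 and 6.48 at 0 min. The groups did not overlap, and the difference of 0.62 ± 0.10 (adjusted p = 0.00144) held without any single array and without both arrays that stand apart. It was 0.37 at 360 min (adjusted p = 0.00974, lost without 0 min replicate 1 at 0.051 or replicate 2 at 0.0525), and at 600 min it was 0.07, with signals of 6.27, 6.36 and 6.48. Snora74a was thus back within the range of 0 min at the last time.

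Snora73a and Snora73b are copies of U17, a snoRNA of small-subunit processing, that lie in the host Snhg3 and share much sequence, so that RNA of either may bind the probes of both. Snora73a had 8.22, 8.36 and 8.39 at 240 min, against 7.70, 7.87 and 7.97 at 0 min, a difference of 0.47 ± 0.11 (adjusted p = 0.0236). Snora73b had 8.39, 8.57 and 8.50 at 240 min, against 7.91, 8.07 and 8.29 at 0 min, a difference of 0.40 ± 0.10 (adjusted p = 0.0289, or 0.0586 with the block). Neither pair of groups overlapped. Without the 2 arrays that stand apart they were 0.44 and 0.39, both still called. Each call was lost without 0 min replicates 1 or 2 or 240 min replicates 1 or 2, with adjusted p of up to 0.137 for Snora73a and 0.169 for Snora73b. The calls at 360 min were lost too, without 4 of the 6 arrays for Snora73a (adjusted p up to 0.15) and without 2 of them for Snora73b (up to 0.0756). At 600 min the differences were -0.07 and -0.08, without a call.

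**Figure D2:**
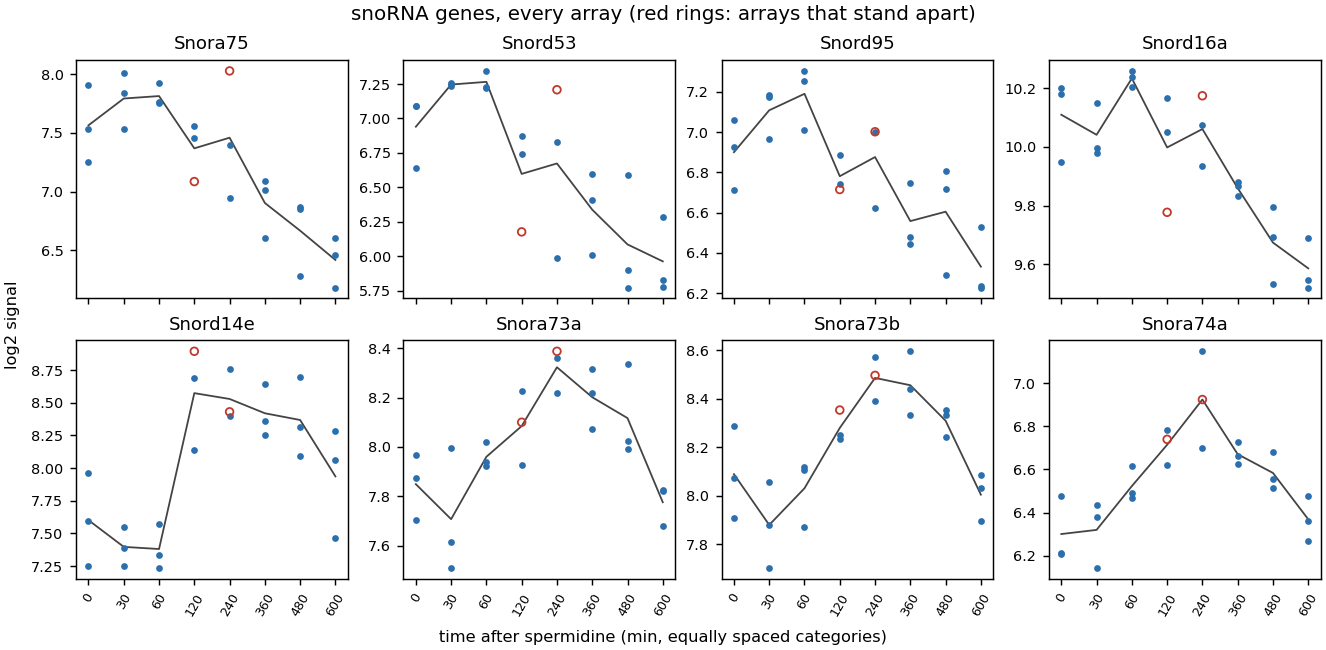
Log2 signal of 8 snoRNA genes against minutes of spermidine, each point an array, the line the mean of 3 arrays, and red rings the 2 arrays that stand apart. Snora75, Snord53, Snord95 and Snord16a are lowest at 600 min, and Snord14e, Snora73a, Snora73b and Snora74a are highest between 120 and 360 min.

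A few snoRNA and scaRNA genes were highest at the end. Snora52, in the ribosomal protein gene Rplp2, had 7.77, 7.80 and 7.81 at 600 min, against 7.44, 7.45 and 7.47 at 0 min. The difference was 0.34 ± 0.11 (adjusted p = 0.0227), and late against early 0.28 ± 0.06 (adjusted p = 0.00118), of which the second held without any single array. The first was lost without 0 min replicates 1 or 2 or 600 min replicates 2 or 3, with an adjusted p of up to 0.062. Rplp2 went the other way late against early, by -0.12 (adjusted p = 0.0162). Snord33, in Rpl13a, known from work on cell death under excess fatty acid, had 8.30, 8.32 and 8.47 at 600 min, against 7.99, 7.84 and 7.89 at 0 min, a difference of 0.46 ± 0.14 (adjusted p = 0.0146). That call was lost without 0 min replicate 2 (adjusted p = 0.0564) or 600 min replicate 3 (adjusted p = 0.0643).

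Snord118, which encodes U8 of large-subunit processing, lay below the background level, with 3.93, 3.89 and 3.87 at 600 min, against 3.71, 3.71 and 3.68 at 0 min. The groups did not overlap, and the difference was 0.20 ± 0.04 (adjusted p = 3.52e-04). Among the scaRNAs, Scarna8 (below background) was higher late by 0.15 (adjusted p = 5.35e-04) and Scarna13 by 0.18 (adjusted p = 0.0211). The call of Scarna13 was lost without 30 min replicate 3 (adjusted p = 0.0524), 120 min replicate 1 (0.0523) or 600 min replicate 1 (0.0515). Scarna13 had its lowest signals at 30 min, with 5.50, 5.59 and 5.30, against 5.83, 5.83 and 6.21 at 0 min, a difference of -0.49 ± 0.10 without a call (adjusted p = 0.173). Scarna17, the brightest of them, had a late minus early difference of 0.11 without a call.

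Intronic snoRNA genes and their hosts were compared where both were measured, for 29 snoRNA and scaRNA genes in 25 hosts. Late against early, 14 of these 29 genes and the hosts of 6 were called, 4 of them in common, of which 3 had the same sign. Of all genes 16.4% were called higher and 19.4% lower, and of those above background 27.7% and 37.8%. The median size of the difference was 0.14 for the snoRNA and scaRNA genes and 0.05 for their hosts. Among 118 miRNA genes with a measured host (89 hosts), 7 miRNA genes and the hosts of 45 were called, 5 in common, of which 4 had the same sign, and the median sizes were 0.03 and 0.05.

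**Figure D3:**
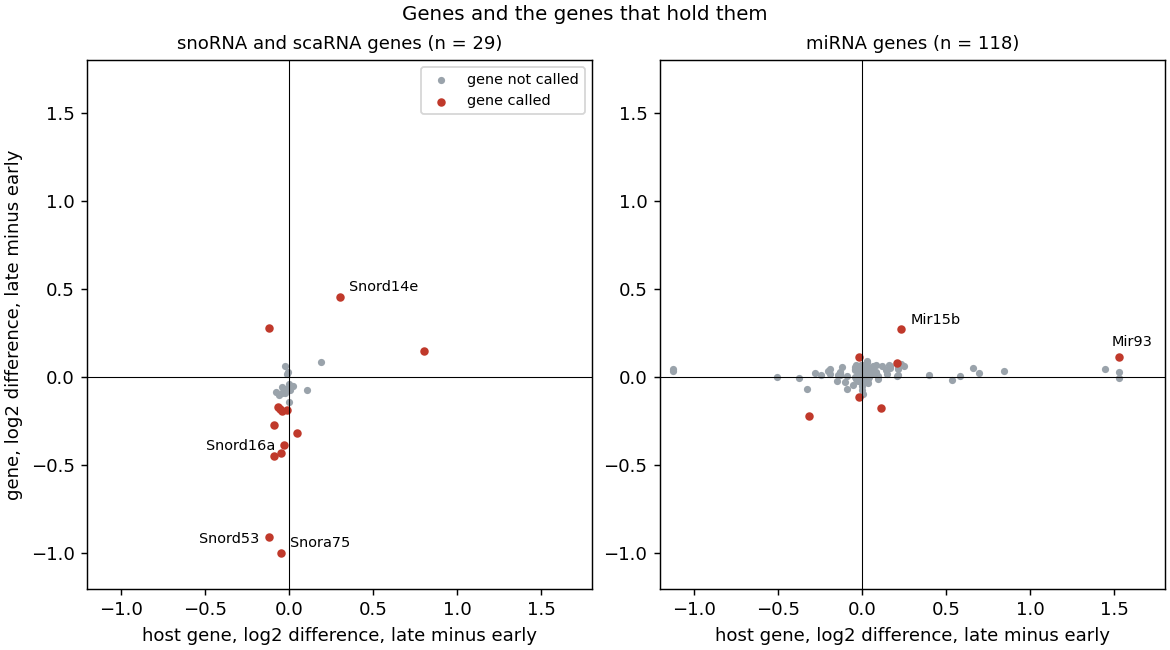
Late minus early log2 difference of each member against that of its host gene, for 29 snoRNA and scaRNA genes and 118 miRNA genes, with called members in red. Snora75 and Snord53 lie far below their hosts Ncl and Wdr43, and most miRNA genes lie near 0.

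Of the 296 miRNA genes, 16 were higher (5.41%) and 19 lower (6.42%) late against early, below the 16.4% and 19.4% of all genes. With the block 9 were higher and 18 lower, and without the 2 arrays that stand apart 12 and 19. When any 1 array was left out, 18 to 20 were lower and 9 to 23 higher, with 9 higher without 480 min replicate 1 and 23 without 120 min replicate 2. At 600 min 12 were higher (4.05%) and 9 lower (3.04%), against 11.2% and 15.7% of all genes. The counts were 8 and 7 with the block, falling to 6 and 5 without 600 min replicate 3, and to 6 higher also without 0 min replicates 2 or 3 or 600 min replicate 2. The F-test called 28 of the 296, or 25 with the block, where it called 30.9% of all genes. Of the 69 miRNA genes above background, 7.25% were higher and 14.5% lower late against early, against 27.7% and 37.8% of all genes above background. At 600 min these shares were 10.1% and 5.80%, against 19.5% and 31.4%.

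The gene of this class with the smallest F-test p was Mir15b, in an intron of Smc4, a condensin subunit. The family of its seed, shown above, is known for holding back the cell cycle through cyclin messenger RNAs. Its signals were 4.79, 4.90 and 4.70 after 0 min, 4.57, 4.73 and 4.65 after 30 min, 4.72, 4.90 and 4.92 after 60 min and 5.14, 5.21 and 5.16 after 120 min. They were 5.18, 5.14 and 5.02 after 240 min, 5.35, 5.39 and 5.35 after 360 min, 5.24, 5.00 and 5.18 after 480 min and 5.07, 4.80 and 5.09 after 600 min. Every array from 120 to 480 min lay above every array from 0 to 60 min.

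The difference of Mir15b from 0 min was 0.57 ± 0.08 at 360 min (adjusted p = 3.45e-05), 0.34 at 480 min (adjusted p = 0.00196) and 0.19 at 600 min (adjusted p = 0.0713). The late minus early difference was 0.27 ± 0.04 (adjusted p = 3.82e-05). The calls at 360 min, at 480 min and late against early held without any single array. Those at 120 and 240 min did not. The one of 0.38 ± 0.08 at 120 min (adjusted p = 0.0335) became an adjusted p of 0.0856 with the block and 0.0827 without the 2 arrays that stand apart. It became up to 0.141 without any of 5 of the 6 arrays compared (all but 0 min replicate 2). The one of 0.32 at 240 min (adjusted p = 0.0259) became 0.054 with the block and was lost without 0 min replicates 1 or 3 or 240 min replicates 1 or 2 (up to 0.132). Without the 2 arrays that stand apart it was 0.37 (adjusted p = 0.00985).

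Smc4 differed by 0.28 at 360 min (adjusted p = 0.0358, or 0.057 with the block), a call lost without any of 5 of the 6 arrays (adjusted p up to 0.164), and by 0.35 at 600 min (adjusted p = 0.00626), which held without any single array. Whether gene and host differed from each other was not tested. Mir16-2, which lies beside Mir15b, differed by 0.14 ± 0.07 at 360 min (adjusted p = 0.166) and by 0.07 late against early. Of the 6 measured genes with this seed, 4 lay above background and the F-test called 3: Mir15b, Mir15a (adjusted p = 0.0139) and Mir195a. The F-test called 30.9% of all genes and 59.3% of those above background. Late against early 1 of the 6 was higher and 0 lower, with differences between -0.01 and 0.27, beside 16.4% and 19.4% of all genes.

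Mir221 and Mir222 are 1 kb or less apart and share a seed, and are known for acting on the cell cycle inhibitor Cdkn1b. Mir221 lay just below the background level, with 4.56, 4.52 and 4.58 after 0 min, 4.58, 4.68 and 4.64 after 30 min, 4.51, 4.59 and 4.50 after 60 min and 4.20, 4.42 and 4.16 after 120 min. It had 4.30, 4.20 and 4.25 after 240 min, 4.25, 4.12 and 4.32 after 360 min, 4.32, 4.16 and 4.18 after 480 min and 4.30, 4.35 and 4.40 after 600 min. Every array from 120 min on lay below every array from 0 to 60 min.

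The difference of Mir221 was -0.32 at 360 min (adjusted p = 7.46e-04) and -0.33 at 480 min (adjusted p = 3.73e-04), and late against early -0.21 (adjusted p = 7.29e-05), all without loss of the call when any single array was left out. At 600 min it was -0.21 (adjusted p = 0.0156), which was lost without 0 min replicate 3 (0.0563) or 600 min replicate 1 (0.0608), and at 240 min -0.31 (adjusted p = 0.00928), lost without 240 min replicate 2 (0.0605). At 120 min it was -0.30 ± 0.06 (adjusted p = 0.0361), but -0.25 without the 2 arrays that stand apart (adjusted p = 0.176), with an adjusted p of 0.0902 with the block. That call was also lost without 0 min replicates 1 (0.16), 2 (0.0645) or 3 (0.105) or 120 min replicates 1 (0.126) or 3 (0.21). Mir222 differed by -0.08 at 480 min (adjusted p = 0.509) and by -0.09 late against early (adjusted p = 0.0931).

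Several miRNA genes linked to fibroblasts, mesenchyme or Hox clusters were lower late. Mir125b-1 had 5.65, 5.70 and 5.20 after 0 min, 6.44, 6.24 and 5.99 after 30 min, 5.55, 5.50 and 5.21 after 60 min and 5.42, 5.27 and 5.71 after 120 min. It had 4.93, 5.65 and 5.78 after 240 min, 5.03, 5.20 and 5.42 after 360 min, 5.00, 4.82 and 5.01 after 480 min and 5.16, 4.79 and 4.85 after 600 min. All arrays at 30 min lay above those of every other time, and all at 480 and 600 min below those at 0 min.

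For Mir125b-1 the difference at 30 min was 0.71 ± 0.19 without a call (adjusted p = 0.59). Late against early it was -0.67 ± 0.11 (adjusted p = 3.73e-05), and -0.63 without the 2 arrays that stand apart. It held without any single array. The calls against 0 min, -0.57 at 480 min (adjusted p = 0.0301) and -0.58 at 600 min (adjusted p = 0.0249), were each lost without 0 min replicate 1 or replicate 2 (adjusted p between 0.0924 and 0.129). The first was also lost without any 480 min array (up to 0.108), and the second without 600 min replicates 2 (0.098) or 3 (0.0799). Mir100hg, the long transcript that spans Mir125b-1, was lower late by -0.30 ± 0.06 (adjusted p = 4.18e-04).

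Mir196a-1 lies in a Hox cluster and acts on Hox messenger RNAs. Its signals were 6.46, 6.71 and 5.92 at 600 min, against 7.34, 7.21 and 7.53 at 0 min. The groups did not overlap, and the difference was -0.99 ± 0.22 (adjusted p = 0.00135), which held without any single array. At 480 min, with 7.09, 6.47 and 6.90, there was no call. Late against early the difference was -0.52 ± 0.12 (adjusted p = 0.00193).

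Mir23a and Mir27a come from 1 transcript with Mir24-2. Late against early they were lower by -0.35 ± 0.07 (Mir23a, adjusted p = 2.65e-04) and -0.35 ± 0.09 (Mir27a, adjusted p = 0.00363), while Mir24-2 had a difference of -0.01 (adjusted p = 0.864). For Mir27a the late signals lay between 5.76 and 6.58 with a median of 6.32, and the early ones between 6.26 and 6.87 with a median of 6.66, so that the groups overlapped. Against 0 min, where its signals were 6.21, 6.22 and 6.13, Mir27a was at 6.04, 6.02 and 6.07 at 600 min and at 6.87, 6.69 and 6.52 at 30 min, both without a call. Its late fall is thus one from a higher early level, of which the rise at 30 min (0.51, adjusted p = 0.686) was not called.

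Mir145a and Mir143, genes of smooth muscle and fibroblasts that share the host Carmn, showed the same form near or below background. Mir145a had 5.18, 4.96 and 4.28 at 30 min, against 4.07, 4.02 and 4.20 at 0 min. The 30 min difference was 0.71 ± 0.14 (adjusted p = 0.139), and from 60 min on every array lay between 3.74 and 4.22. Late against early Mir145a was lower by -0.40 ± 0.08 (adjusted p = 5.13e-04). Mir143 had 4.12, 4.14 and 3.85 at 30 min, against 3.80, 3.78 and 3.72 at 0 min, a difference of 0.27 (adjusted p = 0.265), and a late minus early difference of -0.14 (adjusted p = 0.0021).

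Of the 17 measured genes of the fibroblast list, 4 were lower (23.5%) and 0 higher late against early, close to the 19.4% of all genes that were lower, and the same counts came with the block. The median difference was 0.01, and the F-test called 4 (23.5%, against 30.9% of all genes). Without any 1 array, 4 to 5 were lower. The 4 were Mir125b-1, Mir145a, Mir143 and Mir221. The F-test called 0 of 7 muscle, 0 of 5 embryonic stem cell, 0 of 8 epithelium and liver, 0 of 19 neuron, 0 of 5 blood and 0 of 42 imprinted Dlk1-Dio3 miRNA genes. It called 7.23% of all members at or below background. Late against early, 14.3% of the muscle, 10.5% of the neuron and 4.76% of the Dlk1-Dio3 genes were higher, beside 16.4% of all genes. In each of these lists 0.0% were lower, and the embryonic stem cell, epithelium and liver, and blood lists had no late call.

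**Figure D4:**
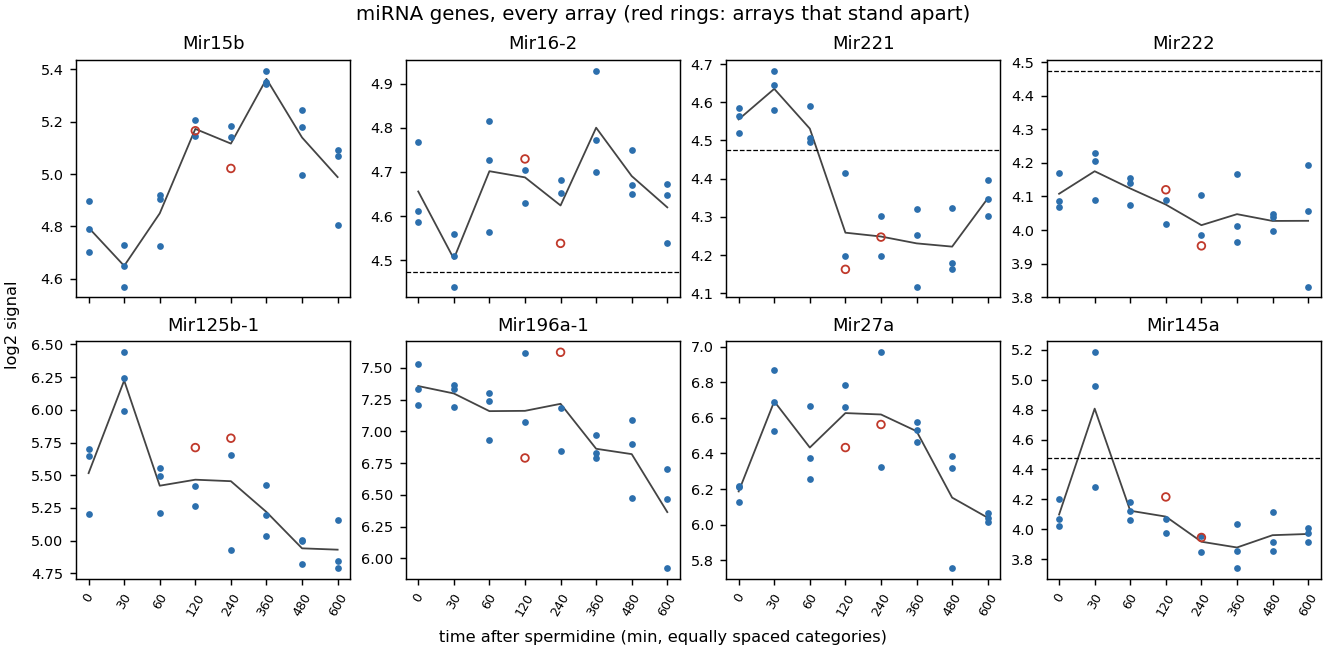
Log2 signal of 8 miRNA genes against minutes of spermidine, each point an array, the line the mean of 3 arrays, red rings the 2 arrays that stand apart and the dashed line the background level of 4.47. Mir15b is highest at 360 min, Mir221 is lower from 120 min on, and Mir125b-1 and Mir145a have their highest signals at 30 min.

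The Mir17-92 cluster is known as a growth-promoting cluster driven by Myc and E2f factors. More of its members were called by the F-test than at any single time. Of all genes the F-test called 30.9%, and of those above background 59.3%. The F-test called 5 of the 6 measured: Mir20a (adjusted p = 4.24e-04), Mir19b-1 (0.0034), Mir19a (0.00802), Mir18 (0.0175) and the host Mir17hg (0.0433, or 0.0841 with the block), but not Mir17 (0.152). Mir20a, just above background, had 4.41, 4.08 and 4.35 at 600 min, against 4.56, 4.49 and 4.44 at 0 min. At 60 min it had 4.82, 4.71 and 4.82, and at 240 min 4.57, 4.84 and 4.95. It thus lay above its 0 min arrays in the middle of the course and below them at the end.

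Late against early Mir20a was lower by -0.17 ± 0.06 (adjusted p = 0.0191), Mir19b-1 by -0.23 ± 0.06 (adjusted p = 0.00226) and Mir17hg by -0.16 ± 0.04 (adjusted p = 0.0056). These 3 held without any single array, and Mir19b-1 and Mir17hg lie below background. Mir18 had -0.28 ± 0.10 (adjusted p = 0.04, or 0.0578 with the block) and lost its call without any of 12 single arrays, up to an adjusted p of 0.095. The differences of Mir19a (-0.16, adjusted p = 0.122) and Mir17 (-0.03, adjusted p = 0.527) missed the threshold. Over a list of the cluster and its paralogues outside Mcm7, 4 of 11 were lower (36.4%) and 0 higher, or 3 and 0 with the block. Of the paralogues inside Mcm7, given below, 33.3% were higher (Mir93) and 0.0% lower. Beside this, 19.4% of all genes were lower and 16.4% higher, and of those above background 37.8% and 27.7%.

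**Figure D5:**
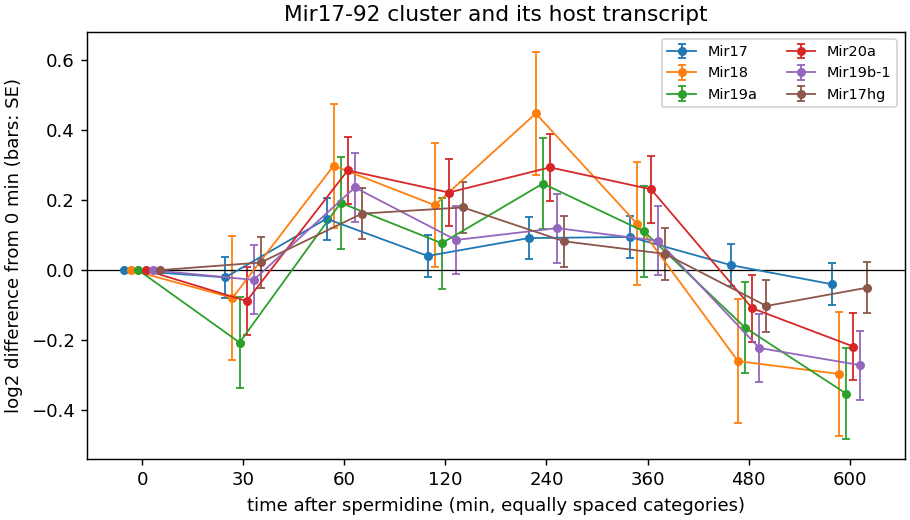
Log2 difference from 0 min with its SE for the 5 miRNA genes of the Mir17-92 cluster and their host Mir17hg at the 7 times of spermidine. Mir20a is above 0 at 60 to 360 min and below it at 480 and 600 min.

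The paralogous cluster inside Mcm7 allows a set of miRNA genes to be compared with a host that rose strongly. Mcm7, a subunit of the replicative helicase, was higher by 1.73 ± 0.16 at 600 min (adjusted p = 9.73e-08) and by 1.53 late against early (adjusted p = 1.07e-10). Over the same contrast at 600 min, Mir93 differed by 0.13 (adjusted p = 0.191), Mir106b by -0.01 and Mir25 by 0.12, and the F-test called 0 of the 3. Late against early Mir93 was higher by 0.12 ± 0.04 (adjusted p = 0.0219, or 0.0638 with the block and without the 2 arrays that stand apart). All 3 lay below background, with means of 4.35 (Mir93), 3.85 (Mir106b) and 4.26 (Mir25), and how much of a rise these probe sets could show was not tested.

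Other miRNA genes with calls at 600 min that no single array decided were small in size. Mir568, one of the brightest, had 7.12, 7.20 and 7.22 at 600 min, against 6.89, 6.64 and 6.80 at 0 min, a difference of 0.40 ± 0.09 (adjusted p = 0.00119). Mir680-1 was higher by 0.29 ± 0.06 (adjusted p = 0.00144). Mir181b-1 was lower by -0.20 (adjusted p = 0.00286) and by -0.19 ± 0.05 at 360 min (adjusted p = 0.00652). Mir34a, a target of p53, was lower by -0.17 ± 0.04 (adjusted p = 0.00355). Mir680-1, Mir181b-1 and Mir34a lay below background. The single call at 60 min, Mir181b-1 by -0.29 (adjusted p = 0.0298), became an adjusted p of 0.108 with the block and was lost without any 1 of the 6 arrays compared.

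Mir365-2 had 5.02, 4.71 and 4.52 at 600 min, against 5.09, 5.38 and 5.41 at 0 min, a difference of -0.54 ± 0.15 (adjusted p = 0.00927) that was lost without 600 min replicate 3 (adjusted p = 0.0638). Late against early it was -0.45 ± 0.09 (adjusted p = 2.5e-04). Mir29a, a regulator of collagen messenger RNAs, was lower late by -0.30 ± 0.06 (adjusted p = 6.71e-04). The late arrays of Mir218-1 (3.52 to 3.70) all lay below its early ones (3.73 to 3.92), with a difference of -0.22 (adjusted p = 3.23e-04) under the background level, and its host Slit2 was lower too, by -0.31 (adjusted p = 0.00166). Mir186, chosen after its values were seen, and its host Zranb2 went opposite ways at 480 min, by -0.33 ± 0.09 (adjusted p = 0.00992, lost without 0 min replicate 3 at 0.0687) and by 0.27 (adjusted p = 0.00126). Of the 10 measured genes of a list of let-7 genes and Mir98 the F-test called 1, or 0 with the block, against 30.9% of all genes. Late against early 10.0% were lower (Mirlet7i, held without any single array) and 0.0% higher, beside 19.4% and 16.4% of all genes. At 600 min 10.0% were lower (Mirlet7f-1, lost without any of 4 of the 6 arrays), beside 15.7% of all genes.

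The protein genes that make and use these RNAs held called changes in both directions. Of 23 measured genes of snoRNA-protein particles and their assembly, 11 were lower and 2 higher at 600 min, or 11 and 0 with the block, with a median of -0.18. The share lower, 47.8%, stands beside 15.7% of all genes and 31.4% of those above background, and the share higher, 8.70%, beside 11.2% and 19.5%. Without 0 min replicate 2 they were 9 and 0. Fbl, the methyltransferase of C/D box particles, was lower by -0.78 ± 0.11 (adjusted p = 1.19e-05), Gar1 of H/ACA box particles by -0.81 ± 0.09 (adjusted p = 7.49e-07) and Dkc1, their pseudouridine synthase, by -0.33 (adjusted p = 0.00164). The C/D box core genes Nop56 (-0.10, adjusted p = 0.269) and Nop58 (-0.06, adjusted p = 0.586) had no call. Of the 22 miRNA machinery genes 6 were higher (27.3%) and 7 lower (31.8%), or 5 and 7 with the block. The partners of the nuclear cutting complex differed in sign, with Drosha at -0.51 ± 0.05 (adjusted p = 3.59e-07) and Dgcr8 at 0.68 ± 0.10 (adjusted p = 1.58e-05). The export factor Xpo5 was lower by -0.67 (adjusted p = 1.69e-08), Srrt higher by 0.72 (adjusted p = 7.62e-09), and Dicer1 had a difference of -0.18 without a call (adjusted p = 0.103).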

How the data were processed

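NIH3T3 fibroblasts were profiled on 24 Affymetrix mouse gene arrays, 3 at each of 8 times. Per the submitters' processing notes the scans were handled in Partek with RMA (software versions not given in the sources used here), which yields background-corrected, normalized log2 signals per probe set. These log2 values were used as deposited. That they are log2 is not written in the notes and was inferred from their range and the method. Replicates 1, 2 and 3 had the same mean over the course for each gene (largest gap 8.75e-05), so a replicate effect had been taken out before deposit, in a way not described in the labels. Arrays give no counts, and their number limits the precision.

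Among 35399 probe sets, 21789 named 1 gene, 1621 several genes and 11989 none. The first kind gave 19938 genes, the highest-mean probe set standing for each of 999 genes with several. Symbols came from the platform annotation. A further 83 miRNA, snoRNA or scaRNA names occur only on probe sets with several symbols and were not tested.

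With limma 3.58.1 and the data.table package (version 1.17.8) in R 4.3.3, each gene's 24 values were fitted with 1 mean per time, and contrasts were tested two-sided by empirical Bayes moderation. There were 16 residual and 3.48 prior degrees of freedom, or 14 residual ones with replicate number as a block. Benjamini-Hochberg adjustment ran over all genes in each contrast, and called means an adjusted p under 0.05 whatever the size of the difference. The fit was tested on simulated data. The removed effect makes the deviations of same-numbered arrays cancel over the course, which by itself sets their mean correlation (-0.14) below 0, so the values cannot show whether the numbers pair the samples. The labels name no shared culture or day. The block is reported because of the removed effect.

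Hosts are the shortest RefSeq genes (GRCm38.p6 tables) that wholly hold a member, with the strand matched where it is given. A set's counts are over its measured genes. Tables and figures used numpy 2.4.6, pandas 2.3.3 and matplotlib 3.10.9.

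The members and lists were chosen with earlier results of these data known. Named members were all those called in a direction at a time, or late against early, where these were 6 or fewer, otherwise the 6 largest called ones whose arrays lay beyond those of the other group. Added were the 6 smallest F-test p and 5 highest signals in each class, up to 4 genes of each list, and genes sharing a host or cluster with these. The alternatives tried were the block, quantile normalization, centring, a filter on low values, the mean of probe sets, all probe sets, a trended robust prior, only the arrays compared, and leaving out single arrays or the 2 that stand apart. Leaving out those 2 together with the block was added after seeing the data.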

Additional observations from a re-analysis of the deposited data

Results flagged for a closer look

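Probe sets with several symbols, which no comparison above used, held miRNA, snoRNA or scaRNA names in 98 cases, 54 of them above the background level. They are listed because they lie outside the main measurement. At 600 min against 0 min, 4 of the 98 passed the adjusted p threshold, 1 higher (1.02%) and 3 lower (3.06%), below the 11.2% and 15.7% of all genes. Late against early 8 were higher (8.16%) and 9 lower (9.18%), against 16.4% and 19.4% of all genes. The F-test over the 7 times called 11 (11.2%), against 30.9%. For these the adjustment ran over all 35399 probe sets.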

How the results depend on the processing

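Under the alternatives tried, 0 of the 187 called differences that were recomputed changed sign, and 151 kept their call with the replicate block. The 187 cover named members, other snoRNA and scaRNA genes, some hosts and some protein genes that make or use these RNAs. Hosts and protein genes are not members, so the share kept is not that of the members alone. The counts of members called at 60 min became 0 with the replicate block, with the filter on low values, with only the arrays compared, and without the 2 arrays that stand apart and with the block. At 120 min the count became 0 with the replicate block, with all probe sets tested, with only the arrays compared, without the 2 arrays that stand apart, and with both these changes, and 5 with the filter. At 240 min it became 5 with the replicate block, 5 without the 2 arrays and with the block, and 0 with only the arrays compared. At 360 min it became 8 with the block and 7 with all probe sets tested. The number of members above background became 75 with the 99th percentile of receptor genes. The counts at 480 and 600 min, late against early and by the F-test stayed within 1.5 times under every setting other than leaving out single arrays. When single arrays were left out, the counts ranged from 0 to 2 at 30 min, 0 to 0 at 60 min, 0 to 4 at 120 min, 1 to 7 at 240 min, 6 to 14 at 360 min, 12 to 22 at 480 min, 18 to 34 at 600 min, 51 to 66 late against early and 38 to 55 by the F-test. Most miRNA probe sets lie near background, where a change of a rare RNA need not show.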
